A study of Mus musculus with 16 samples.

Results

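The 35 genes described here are interferon-stimulated genes of the mouse, a set of transcripts that rise in most cells exposed to interferon. They were taken by symbol and looked up in 3 RNA-seq comparisons of bone endothelial cells. All 35 were among the 38926 gene names of the marrow and metaphysis table and of the Lats2 table. Of the 21603 genes of the Yap1/Taz files, 34 were members, and Mx2 was not among those genes.

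The study asks how the Hippo pathway acts on the growth of bone vessels, and its 16 libraries come from endothelial cells isolated by FACS from C57BL/6 mice. In wildtype mice that carry the endothelial reporter Cdh5-mT/nG, 3 libraries of femur metaphysis cells (mpECs) and 3 of diaphyseal marrow cells (bmECs) were made. By the study's methods the animals of all 16 libraries were 3 weeks old. At postnatal day 21, 3 libraries labelled Yap1/Taz iΔEC (Yap1flx/flx; Wwtr1flx/flx with Cdh5CreERT2) stood against 3 from Cre-negative mice with the same floxed alleles. A further 2 libraries of Lats2flx/flx mice with Cdh5CreERT2 (Lats2 iΔEC) stood against 2 Cre-negative Lats2flx/flx libraries. Cdh5CreERT2 is a tamoxifen-inducible Cre of endothelial cells, so any other cell of a library would keep the floxed alleles. The methods name males for the analysis of wildtype bone, otherwise group animals of either sex, and give no sex for a single library.

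Type I interferons signal through Ifnar1 and Ifnar2 and the kinases Jak1 and Tyk2, which lead to the binding of Stat2 and Irf9 to the interferon-stimulated response element (ISRE). Interferon gamma signals through Ifngr1 and Ifngr2, Jak1 and Jak2, and acts on genes that carry the gamma-activated sequence (GAS). The proteins made in response block viral entry, translation and release or act on the vacuoles of intracellular microbes, and a low level of many of them is present in healthy tissues, marrow included.

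Values are FPKM, the fragments on a gene divided by its length in kilobases and by a measure of library size, as deposited by the authors. Reads were recovered from the FPKM steps with annotated gene lengths and are approximate. The mpEC libraries held 14662536, 11384011 and 11112798 of them on genes, in the order of their replicate numbers, and the bmEC libraries 11251302, 12872791 and 14744249. The Yap1/Taz controls had 5040651, 7166585 and 6456891 reads and the libraries labelled Yap1/Taz iΔEC 4885983, 6472516 and 6229137. The Lats2 controls had 5853427 and 7067604, and the Lats2 iΔEC libraries 4729887 and 6692150. At these depths 1 read in a gene of 2000 bases was worth 0.0405 to 0.133 FPKM. Yap1/Taz control replicate 1 had 13434 genes above 0, the fewest of the 16 libraries.

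The endothelial markers Pecam1 and Cdh5 were present in every library, Cdh5 at 149, 203 and 189 FPKM in mpECs and 165, 160.1 and 182 FPKM in bmECs. Transcripts of blood cells were abundant beside them. The 9 neutrophil markers summed to 27789, 11628 and 18009.9 FPKM in mpECs and 13878, 9451 and 9924 FPKM in bmECs, with S100a8 the most abundant. The erythroid sum, led by Hbb-bs, was 52847, 28227 and 33464 FPKM in mpECs and 60369.5, 55969.5 and 42447 FPKM in bmECs, the largest of the blood cell lists in these libraries. The B cell sum was 308, 169 and 155 FPKM and 176, 147 and 157 FPKM, and the T or NK sum 76.03, 41.01 and 25.5 FPKM and 38.2, 14.9 and 30.8 FPKM. The 10 endothelial markers summed to 1629, 1999.8 and 1937 FPKM in mpECs and 2145, 2059 and 2017 FPKM in bmECs. In the Yap1/Taz files the endothelial sum was 640.4, 639 and 613 FPKM in controls and 791, 908 and 918 FPKM in the libraries labelled Yap1/Taz iΔEC, below the macrophage or monocyte sum in each library. In the Lats2 table it was 2650.4 and 2918 FPKM in controls and 2607 and 2423 FPKM in Lats2 iΔEC. Blood cells also express interferon-stimulated genes, and their share in the members' values was not tested. In these bulk libraries fewer cells of a type and less RNA per cell cannot be told apart.

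The genes targeted by Cre were read first. Wwtr1, which encodes Taz, stood at 10.01, 9.88 and 10.3 FPKM in the Yap1/Taz controls and at 15.3, 19.6 and 19.5 FPKM in the libraries labelled Yap1/Taz iΔEC. It was thus higher in each library labelled as lacking it than in each control (log2 fold change 0.78, SE 0.12, adjusted p 0.0272, limma with Benjamini-Hochberg adjustment). Its adjusted p was 0.0752 without control replicate 2 and 0.0715 without control replicate 3. It was 0.180 without the labelled replicate 2 and 0.144 without the labelled replicate 3. The log2 fold change in these fits was 0.77, 0.80, 0.72 and 0.73 in turn. Over the 14 alternative settings the adjusted p ran from 0.00749 to 0.180 and was under 0.05 in 8. Yap1 stood at 1.07, 1.62 and 0.995 FPKM in controls and 1.43, 1.03 and 0.989 FPKM in the labelled libraries, and the groups overlapped (log2 fold change -0.04, SE 0.18, adjusted p 0.934). FPKM counts reads over the whole gene, so a transcript that lacks only the floxed exons still adds to it. On this measure Wwtr1 goes against the label, and a direction in this comparison follows the labels alone. By quantitative PCR the paper reports both transcripts lower in Yap1/Taz iΔEC bone endothelial cells, and by immunostaining less Yap1, which runs the way of the label. Lats2, the kinase that restrains Yap1 and Taz, stood at 23.4 and 24.03 FPKM in its controls and 19.2 and 19.2 FPKM in Lats2 iΔEC. The groups did not overlap, but the difference did not pass the test (log2 fold change -0.29, SE 0.11, adjusted p 0.125), and in the voom fit on recovered reads its adjusted p was 0.0436. Of its exon bases 42.4% are overlapped by Gm49361 on the same strand, which limits the reads that can be counted for it. The paper reports a significant drop of Lats2 transcripts in bone endothelial cells of Lats2 iΔEC mice.

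The members covered a wide range of levels. In the 6 mpEC and bmEC libraries the most abundant by mean were Ifitm3 at 1254 FPKM, Ifitm2 at 792 and Bst2 at 370 FPKM, which encode membrane proteins that block viral entry or tether budding virus. The GTPase gene Iigp1 followed at 164 FPKM and Rtp4, which encodes a receptor chaperone, at 134 FPKM. At the other end, Mx2, Mx1 and Oas2 had means of 0.506, 0.265 and 0.128 FPKM. Ifitm3, Ifitm2 and Bst2 also held the first 3 ranks in the other 2 sets of libraries. FPKM divides by gene length, so these levels compare genes per base.

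Some members share sequence with near copies, which limits how their reads can be assigned. Of the 50-base words in Ifit3 transcripts, 51.2% also occur in transcripts of Ifit3b. The share was 57.6% for Oas1a with Oas1g, and 36.1% for Ifitm2 with Gm45717, which overlaps 40.9% of its exon bases on the same strand. For Igtp 11.8% of the words are shared with Irgm2, and for Rtp4 11.6% with Gm45338. Ifi35 has 16.8% of its exon bases overlapped by Gm11626 on the other strand, and whether counting used the strand is not stated.

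What the members share in sequence was read from the RefSeq promoter table of GRCm38.p6, which runs from 250 bases before to 50 bases after a gene's start and held 27 of the 35 members. Usp18, Oas2, Zbp1, Mx1, Mx2, Iigp1, Rtp4 and Parp14 were not in it. The ISRE core GAAANNGAA and the GAS motif TTCNNNGAA were searched on both strands, and matches were allowed to overlap each other. The ISRE core occurred in 16 of the 27 members (59.3%), against 9.76% of 27025 genes and 8.56% of 32851 promoters in the table. The GAS motif occurred in 10 of the 27 (37.0%), against 9.55% of genes and 8.30% of promoters. A match describes the letters only and shows no binding.

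The 7 promoters printed here belong to members whose values are given library by library, and to Isg15, whose groups overlapped in each comparison. Each runs over the 180 bases before the start given in that table, 5′ to 3′ on the gene's strand, with motif matches in capitals. For Irgm1 these bases lie inside the gene as annotated by GENCODE. Irf8 (chr8:120736178-120736357) and Irf1 (chr11:53769834-53770013) hold GAS matches, the first of them 171 and 90 bases before the start. For both genes the table has a second promoter with no match, which is not shown. Igtp (chr11:58199376-58199555) holds a GAS match 45 bases and an ISRE core 34 bases before the start. Irgm1 (chr11:48871421-48871600), Ifit3 (chr19:34583349-34583528), Rsad2 (chr12:26456453-26456632) and Isg15 (chr4:156200819-156200998) hold ISRE cores and no GAS match, with 2, 3, 1 and 3 cores.
Irf8: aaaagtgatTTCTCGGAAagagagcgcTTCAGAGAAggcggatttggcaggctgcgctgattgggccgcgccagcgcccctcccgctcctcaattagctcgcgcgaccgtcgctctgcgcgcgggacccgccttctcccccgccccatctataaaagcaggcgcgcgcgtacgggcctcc
Irf1: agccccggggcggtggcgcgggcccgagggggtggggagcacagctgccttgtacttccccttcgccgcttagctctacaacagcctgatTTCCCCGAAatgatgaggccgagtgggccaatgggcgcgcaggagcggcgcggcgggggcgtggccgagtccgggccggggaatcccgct
Igtp: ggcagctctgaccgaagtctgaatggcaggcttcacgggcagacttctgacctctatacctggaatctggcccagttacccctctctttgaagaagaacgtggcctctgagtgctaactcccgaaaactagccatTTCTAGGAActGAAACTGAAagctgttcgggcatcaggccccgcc
Irgm1: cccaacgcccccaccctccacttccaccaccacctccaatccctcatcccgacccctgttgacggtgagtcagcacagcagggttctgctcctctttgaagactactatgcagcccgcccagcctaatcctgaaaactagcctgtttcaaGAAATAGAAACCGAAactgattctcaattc
Ifit3: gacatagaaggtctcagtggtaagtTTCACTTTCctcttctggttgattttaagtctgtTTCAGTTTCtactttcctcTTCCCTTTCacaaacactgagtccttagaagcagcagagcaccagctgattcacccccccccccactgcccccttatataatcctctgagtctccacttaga
Rsad2: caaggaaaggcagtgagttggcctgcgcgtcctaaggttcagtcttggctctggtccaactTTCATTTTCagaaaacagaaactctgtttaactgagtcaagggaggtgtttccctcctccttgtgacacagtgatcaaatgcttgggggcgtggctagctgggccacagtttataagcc
Isg15: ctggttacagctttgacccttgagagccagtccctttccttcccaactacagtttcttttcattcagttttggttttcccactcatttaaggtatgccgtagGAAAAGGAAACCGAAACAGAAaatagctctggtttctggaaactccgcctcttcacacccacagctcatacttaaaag

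**Figure D1:**
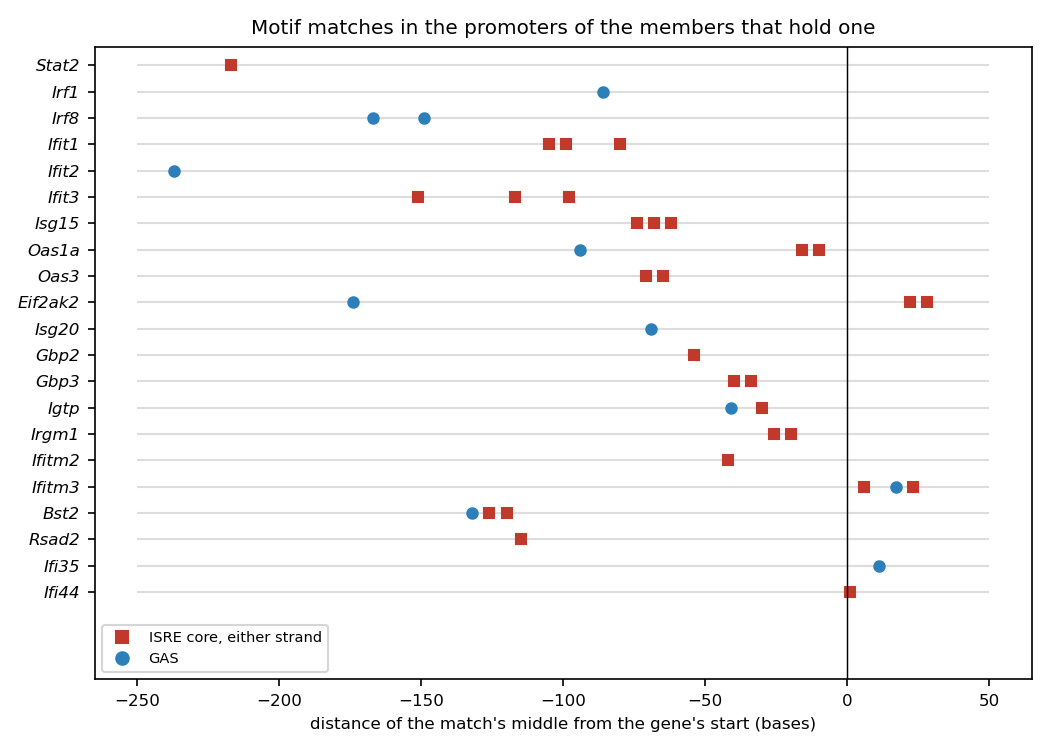
Position of each match (ISRE core, red squares; GAS, blue circles) in the promoters of the 21 members with at least 1 match, in bases from the gene's start. Most ISRE cores lie within the 155 bases before the start, with Stat2 farther out at 221 bases and those of Eif2ak2 and Ifitm3 past the start.

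The comparison of bmECs with mpECs asks how endothelial cells of the marrow differ from those near the growth plate. Of the 35 members 32 passed the filter of a mean of at least 1 FPKM and 3, Mx1, Mx2 and Oas2, did not. Irf8, Iigp1 and Parp14 were higher in bmECs, that is 3 of 32 members, where 13% of the 11422 genes tested were called higher. The limma test called 0 members lower, where 10.5% of genes were, with 2 members lower at an unadjusted p under 0.05, where 16.9% of genes were, and 3 lower by limma-voom on recovered reads (Oasl2, Rsad2 and Zbp1). In the voom fit 3 members were called higher, where 8.25% of 10789 genes were, and 22.4% of genes were called lower. The share of members called higher by limma was no larger than the background. A limma fit that took like-numbered libraries as pairs called 7 members higher and 2 lower, where 13.98% and 12.9% of genes were. The median log2 fold change of the tested members was 0.07, against -0.00068 over all genes. In the voom fit these medians were -0.11 and -0.19. With 1 library left out the members' median ran from -0.06 (without bmEC replicate 2) to 0.17 (without bmEC replicate 1). A p-value here measures the spread between these libraries alone, and log2 fold changes of FPKM + 1 understate the change of genes with low values.

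Irf8 encodes a transcription factor of myeloid cells that interferon gamma induces (ENSMUSG00000041515, chromosome 8 from 120736358 to 120756694 of GRCm38). It stood at 12.997, 14.6 and 12.2 FPKM in the mpEC libraries and at 35.2, 35.4 and 35.6 FPKM in the bmEC libraries. The groups were far apart and the bmEC libraries lay within less than 1 FPKM of each other. The means were 13.3 ± 1.22 FPKM and 35.4 ± 0.1998 FPKM (SD, n = 3), and the log2 fold change was 1.35 with SE 0.09 and an adjusted p of 6.28e-05. The adjusted p stayed between 3.29e-05 and 0.00102 over the 15 alternative settings. The other transducers and factors of the list had groups that overlapped. Their log2 fold changes ran from -0.26 for Stat2 to 0.25 for Irf9, which bind together at the ISRE, with 0.19 for Irf1 and 0.22 for Irf7. Stat2 had 3.48, 6.09 and 5.69 FPKM in mpECs and 2.43, 3.44 and 7.09 FPKM in bmECs.

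Among the GTPases that act on the vacuoles of microbes, Iigp1 stood at 73.5, 134 and 66.7 FPKM in mpECs and 212, 315 and 183 FPKM in bmECs. Each bmEC library was above each mpEC library, and replicate 2 was the highest of its group on both sides (log2 fold change 1.40, SE 0.29, adjusted p 0.0102). Its relative Igtp, at 29.8, 49.2 and 27.2 FPKM in mpECs and 42.9, 73.3 and 44.3 FPKM in bmECs, overlapped through mpEC replicate 2 and was not called (log2 fold change 0.59, SE 0.26, adjusted p 0.152). Without mpEC replicate 2 Igtp was called with an adjusted p of 0.0428, and without bmEC replicate 2 its adjusted p was 0.384. Over the 15 alternatives it ran from 0.00228 to 0.384. Irgm1, Gbp2 and Gbp3 had log2 fold changes of -0.07, 0.18 and -0.12.

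Parp14 encodes a mono-ADP-ribosyltransferase (ENSMUSG00000034422, chromosome 16 from 35832874 to 35871544 of GRCm38). It stood at 5.61, 6.87 and 5.84 FPKM in mpECs and at 9.38, 10.2 and 10.9 FPKM in bmECs. Each bmEC library was above each mpEC library (log2 fold change 0.65, SE 0.11, adjusted p 0.00404), and the adjusted p was under 0.05 in each of the 15 alternatives. Ifitm2, at 746, 669 and 738 FPKM in mpECs and 884, 869 and 844 FPKM in bmECs, also did not overlap but missed the threshold (log2 fold change 0.27, SE 0.09, adjusted p 0.0548), with an adjusted p of 0.0489 to 0.730 over the 15 alternatives, 2 of them under 0.05. In the other direction, Zbp1, a sensor of Z-form nucleic acids, stood at 1.65, 2.16 and 2.101 FPKM in mpECs and 1.24, 1.62 and 1.204 FPKM in bmECs. Each bmEC library was below each mpEC library, and the difference was not called (log2 fold change -0.34, SE 0.14, adjusted p 0.128). In all, 4 members were higher in each bmEC library than in each mpEC library, where 22.1% of genes were, and 1 was lower in each, where 19.2% were.

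In the other families limma called 0 members, with Ifitm2 higher and Oasl2 and Zbp1 lower at an unadjusted p under 0.05, and voom called Oasl2, Rsad2 and Zbp1 lower. The IFIT genes, whose proteins bind viral RNA, had log2 fold changes of -0.10, -0.04 and 0.48 for Ifit1, Ifit2 and Ifit3. Isg15, the ubiquitin-like modifier, stood at 68.5, 93.9 and 74.2 FPKM in mpECs and 64.3, 102 and 73.7 FPKM in bmECs, and Usp18, the protease that removes it, had a log2 fold change of -0.07. In the oligoadenylate synthetase family, which activates an RNA-cutting enzyme, the 4 tested members had a median of -0.31. The lowest was Oasl2, at 23.9, 32.9 and 23.4 FPKM in mpECs and 14.2, 26.1 and 15.3 FPKM in bmECs. The groups overlapped through bmEC replicate 2 (log2 fold change -0.54, SE 0.23, adjusted p 0.1304). Without that library Oasl2 was called lower, with an adjusted p of 0.01599 (0.00861 to 0.319 over the 15 alternatives). Without bmEC replicate 3 Ifitm1 was called lower with an adjusted p of 0.0204, the smallest of its 14 alternatives, which reached 0.733. The uncalled members together ran from -0.54 to 0.59, and their adjusted p-values from 0.0548 to 0.988.

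**Figure D2:**
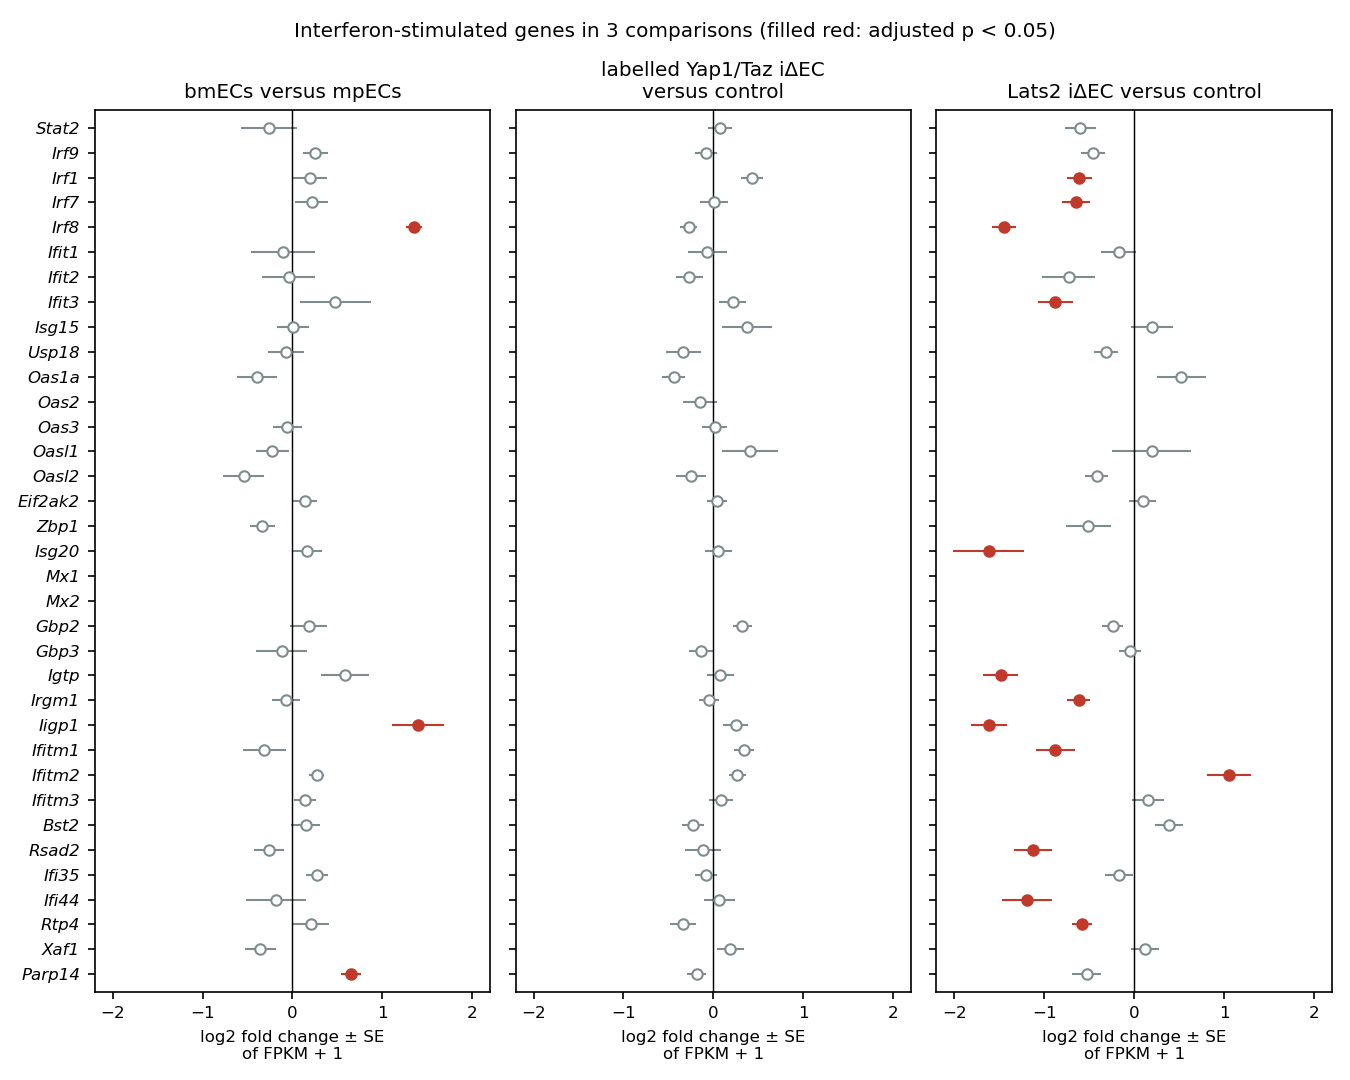
Log2 fold change of FPKM + 1 with its SE for each tested member, ordered by role, in the 3 comparisons; filled red points have an adjusted p under 0.05. In the Lats2 comparison 23 of 31 points lie below 0, against 15 of 32 in each of the others.

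Within each region 1 library stood apart from the rest across the list. In mpEC replicate 2, 29 of the 32 tested members had their highest value of the 3 mpEC libraries, where 32.1% of all genes did. In bmEC replicate 2, 26 of 32 members were highest, where 33.5% of all genes were. The median member was 0.40 log2 units above the mean of the other mpEC libraries in the first and 0.38 above the other bmEC libraries in the second, where all genes had medians of 0.00 and 0.01. Ifit3 shows it, at 14.7, 37.97 and 23.7 FPKM in mpECs and 19.6, 51.9 and 36.4 FPKM in bmECs. Ifi44, a cytoplasmic protein of uncertain role, stood at 7.46, 19.4 and 11.3 FPKM and 7.53, 15.1 and 9.599 FPKM. In both genes replicate 2 was the highest library of each region.

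The same held for a separate list of 60 other interferon-stimulated genes, of which 43 were tested. There, 34 were highest in mpEC replicate 2 and 33 in bmEC replicate 2, with medians of 0.27 and 0.29 above the others. Of the marker lists, the neutrophil, the macrophage or monocyte and the megakaryocyte sums were the lowest of their region in each of these libraries. The macrophage or monocyte sum was 2026, 1116 and 1438 FPKM in mpECs and 1051, 769 and 813 FPKM in bmECs. The megakaryocyte sum was 324, 76.6 and 127 FPKM and 467, 78.9 and 206 FPKM. The plasmacytoid dendritic sum, led by Ly6d, which B cell precursors also express, was 164, 78.8 and 93.004 FPKM in mpECs and 96.5, 103 and 96.001 FPKM in bmECs. The cause of the difference between these libraries was not tested, and whether like-numbered libraries share animals or a batch is not stated. With both replicate 2 libraries left out, a setting chosen after seeing the data, 4 members were called higher in bmECs (Igtp, Iigp1, Irf8 and Parp14) and 1 lower (Oasl2). In that fit 7.11% and 6.39% of 11427 genes were called higher and lower.

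**Figure D3:**
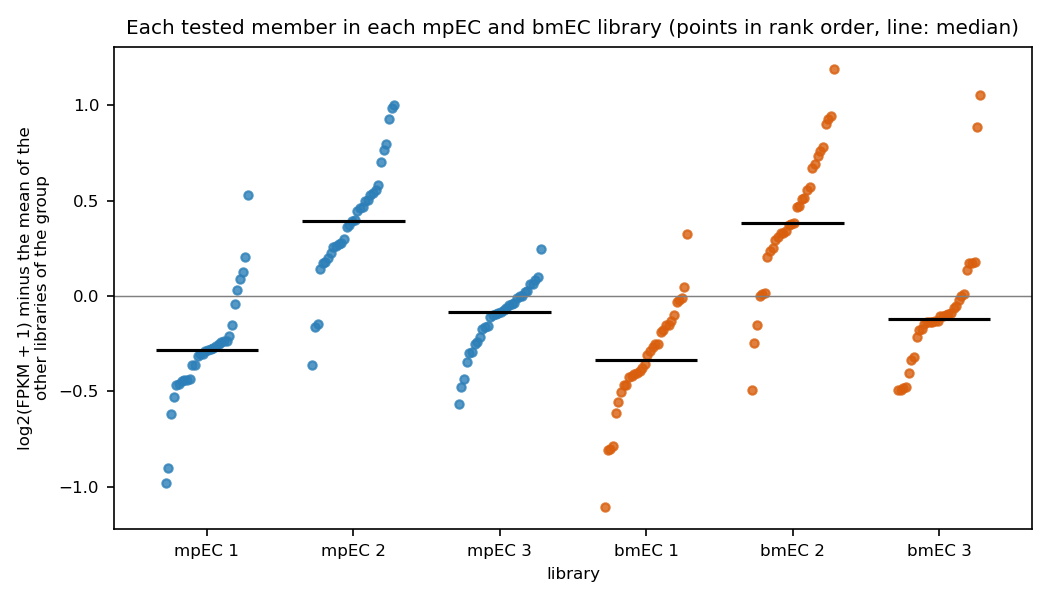
Each tested member's log2(FPKM + 1) in a library minus its mean in the other libraries of the same region (points, 32 per library; black line, median). The medians of mpEC and bmEC replicate 2 lie at 0.40 and 0.38, and those of the other 4 libraries below 0.

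Upstream of the members, few reads were assigned to interferon genes. Of the 19 interferon genes listed there, 16 were at 0 in all 6 libraries, and the others, Ifne, Ifnz and Ifng, did not exceed 1.24 FPKM. A value of 0 does not show absence, since reads that match several genes may go uncounted. The Ifna genes share stretches of sequence, and Trex1, all of whose exon bases lie within another gene, was also at 0 in all 6 libraries. Among the receptors, Ifngr1 stood at 140.0, 169 and 136 FPKM in mpECs and 217, 262 and 199 FPKM in bmECs and rose (log2 fold change 0.60, SE 0.13, adjusted p 0.0121). Ifnar2 rose as well (log2 fold change 0.37, SE 0.09, adjusted p 0.0245), so that 2 of 5 tested receptors were called higher and 0 lower by limma, where 13% and 10.5% of all genes were, with 1 lower at an unadjusted p under 0.05. At that unadjusted p 16.9% of all genes were lower. Voom on recovered reads called 1 higher (Ifngr1) and 3 lower, where 8.25% and 22.4% of all genes were. Ifngr1 had an adjusted p of 0.0511 without mpEC replicate 3. Ifnar2 was not called without mpEC replicate 1 or 3 or bmEC replicate 2 or 3 (adjusted p from 0.0619 to 0.0878). The adjusted p was 0.0931 for Ifnar1, 0.271 for Ifngr2 and 0.193 for Il10rb, with log2 fold changes of -0.36, -0.14 and -0.19, and Ifnlr1 was below the filter.

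Jak1, the kinase common to both interferon pathways, stood at 132, 155 and 125 FPKM in mpECs and 402, 397 and 349 FPKM in bmECs. The groups did not come near each other (log2 fold change 1.47, SE 0.11, adjusted p 8.05e-05). Jak2 and Stat3 also rose, with log2 fold changes of 0.44 and 0.41 and adjusted p-values of 0.0254 and 0.0316. Voom called Jak1 alone of these, with adjusted p-values of 0.1005 for Jak2 and 0.207 for Stat3. Jak2 was not called without replicate 1 or 2 of either region (0.0572 to 0.0861), and Stat3 not without replicate 1 or 3 of either region (0.0657 to 0.0947). Tyk2 had a log2 fold change of -0.08 (adjusted p 0.742).

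Of the 6 inhibitors of the pathway 3 rose in bmECs, namely Cish (0.81, adjusted p 0.00211), Socs3 (1.43, 0.0207) and Pias1 (0.26, 0.0406). Voom called 2 of them, with an adjusted p of 0.523 for Pias1. Pias1 was not called with any library left out (0.0572 to 0.138), and Socs3 not without replicate 1 or 2 of either region (0.0558 to 0.07003). Of 14 sensors and adaptors 5 rose. They were Mavs, the adaptor of the cytosolic RNA sensors (0.93, adjusted p 0.000242), Tmem173, which encodes Sting (0.66, 0.00104), Myd88 (0.57), Ifih1 (0.57) and Ddx58 (0.49). Voom called 4, not Ddx58. Ddx58 was not called without mpEC replicate 1 or 3 or bmEC replicate 2 or 3 (0.1008 to 0.131), and Ifih1 not without mpEC replicate 3 or bmEC replicate 2 (0.0637 and 0.0519). Of the 43 tested genes of the wider list 10 rose and 4 fell, where 13% and 10.5% of all genes did. By voom 8 rose and 7 fell, where 8.25% and 22.4% of all genes did. Tor3a (0.94), Trim30d (0.96), Ifi47 (0.99) and Ly6e (0.70) rose and Slfn2 (-0.70) fell, the 5 with the smallest adjusted p. The median of the 43 was 0.06.

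Other marker lists also differed between the regions. The 8 genes of sorting stress, led by Fos, summed to 359.7, 394 and 642 FPKM in mpECs and 1560.4, 1807 and 504 FPKM in bmECs, and 2 of 7 tested were called higher. Socs3 stood at 3.14, 4.75 and 7.69 FPKM in mpECs and 18.999, 19.9 and 8.73 FPKM in bmECs, and like that sum was lowest of its region in mpEC replicate 1 and bmEC replicate 3. The osteoblast list, led by Bglap, summed to 921, 432 and 233 FPKM and 46.9, 57.6 and 43.4 FPKM, with 4 of 5 tested called lower. The osteoclast list, led by Acp5, summed to 74.7, 40.9 and 61.8 FPKM and 23.9, 25.03 and 27.9 FPKM, with 3 of 3 called lower. The stromal list, led by Cxcl12, summed to 35.03, 30.7 and 36.5 FPKM and 43.6, 66.2 and 55.96 FPKM, with 2 of 3 called higher. The dendritic list, led by Zbtb46, summed to 5.3, 7.84 and 7.26 FPKM in mpECs and 9.98, 10.05 and 11.4 FPKM in bmECs. Its 1 tested gene, Zbtb46, which endothelial cells also express, was called higher, by limma and by voom. Of 10 endothelial markers, led by Cldn5, 4 were called higher and 3 lower. Of 9 macrophage or monocyte markers 1, Lyz2, was called lower, and 3 by voom. By limma 0 of 9 neutrophil markers were called, with 4 lower at an unadjusted p under 0.05 and 4 called lower by voom. Of all genes limma called 13% higher and 10.5% lower, and voom 8.25% and 22.4%. At an unadjusted p under 0.05, 19.2% were higher and 16.9% lower. No marker of these lists was at 0 in all 6 libraries, and their part in the differences between the regions was not tested.

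The Yap1/Taz files compare libraries by a label that the whole-gene levels of Yap1 and Wwtr1 do not bear out. The paper's quantitative PCR and immunostaining, given above, run the way of the label. Of the 34 members in them 32 were tested, and Zbp1 and Mx1 were below the filter. By limma 0 members were called higher, where 0.883% of the 11320 genes tested were, and 0 lower, where 0.424% were. At an unadjusted p under 0.05, 4 members were higher, where 9.79% of genes were, and 3 lower, where 8.08% were, and voom on recovered reads called 0 in both directions. Of all genes 17.9% had an unadjusted p under 0.05. The calls over all genes numbered 148, and 1 without the labelled replicate 2, without the labelled replicate 3 or with no filter. The median log2 fold change was 0.01 among members and -0.0047 over all genes, and members ran from -0.44 to 0.43. With 1 library left out the members' median ran from -0.07 (without the labelled replicate 1) to 0.06 (without the labelled replicate 3).

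Irf1, a transcription factor induced by interferon gamma, stood at 34.1, 38.9 and 35.1 FPKM in controls and 40.6, 54.7 and 52.4 FPKM in the libraries labelled Yap1/Taz iΔEC. Each labelled library was above each control (log2 fold change 0.43, SE 0.12, adjusted p 0.114). Without the labelled replicate 1, the lowest of its group, Irf1 was called higher with an adjusted p of 0.0302, and over the 14 alternatives the value ran from 0.0302 to 0.387. Irf8 stood at 26.2, 25.2 and 26.6 FPKM in controls and 20.1, 21.99 and 22.004 FPKM in the labelled libraries. Each labelled library was below each control, and the difference was not called (log2 fold change -0.27, SE 0.09, adjusted p 0.159). Iigp1 stood at 19.6, 14.4 and 19.05 FPKM in controls and 19.1, 24.6 and 19.8 FPKM in the labelled libraries, and the groups overlapped (log2 fold change 0.25, SE 0.14, adjusted p 0.391).

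In all, 4 members were higher in each labelled library than in each control (Irf1, Gbp2, Ifitm1 and Ifitm2), where 12.3% of genes were. The 3 lower in each were Irf8, Oas1a and Parp14, where 11.3% of genes were. Oas1a stood at 12.3, 10.2 and 13.9 FPKM in controls and 9.32, 8.26 and 8.31 FPKM in the labelled libraries, and was not called (log2 fold change -0.44, SE 0.13, adjusted p 0.1096). Below the filter, Zbp1 was at 1.43, 0.782 and 1.24 FPKM in controls and 0.485, 0.388 and 0.499 FPKM in the labelled libraries. Isg15 was far lower here than in the other tables, at 0.836, 2.498 and 3.42 FPKM in controls and 3.399, 2.49 and 3.03 FPKM in the labelled libraries, but these files come from separate processing and the levels were not compared by a test.

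Of the pathway lists, 0 of 5 receptors, 0 of 4 genes among the kinases and Stat3, 0 of 16 sensors and adaptors and 0 of 48 genes of the wider list were called by limma in this comparison. Voom on recovered reads also called none of them. At an unadjusted p under 0.05, 1 receptor was lower, 2 of the kinases and Stat3 were higher, 0 sensors and adaptors differed, and 4 genes of the wider list were higher and 8 lower. Of all genes 9.79% were higher and 8.08% lower at that p, and limma called 0.883% and 0.424%. Jak1 had a log2 fold change of 0.08, Jak2 of 0.35, Tyk2 of -0.02 and Stat3 of 0.22. The receptors ran from -0.35 for Il10rb to 0.14 for Ifngr1. Among 6 inhibitors Socs3 rose (log2 fold change 0.75, SE 0.14, adjusted p 0.0406) and Ptpn6, a phosphatase of blood cells, fell (log2 fold change -0.50, SE 0.09, adjusted p 0.0387). Voom called both, each with an adjusted p of 0.0164. Without 1 library neither was called in 4 cases, control replicate 2 or 3 or the labelled replicate 2 or 3 (0.0846 to 0.203), and Socs3 was also not called without control replicate 1 (0.0538). Of 17 interferon genes in these files 13 were at 0 in all 6 libraries, and none exceeded 0.566 FPKM.

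Marker lists moved in these files as well. The 8 genes of sorting stress, led by Junb, summed to 1647, 1639.6 and 1670.1 FPKM in controls and 1727, 2143 and 2172 FPKM in the labelled libraries, with 1 of 8 called higher and 5 higher at an unadjusted p under 0.05. Socs3 stood at 42.1, 38.8 and 39.004 FPKM in controls and 53.6, 74.8 and 78.3 FPKM in the labelled libraries. The 6 B cell markers, led by Cd79b, summed to 308, 286 and 255 FPKM and 214, 218 and 213 FPKM. By limma 0 of 6 were called, with 6 lower at an unadjusted p under 0.05 and 1 called lower by voom. The plasmacytoid dendritic list, led by Ly6d, which B cell precursors also express, summed to 102, 79.7 and 74.1 FPKM and 45.9, 56.7 and 49.2 FPKM, with 2 of 4 called lower. The osteoblast list, led by Col1a1, summed to 31.2, 28.1 and 41.1 FPKM and 19.4, 6.602 and 7.38 FPKM, with 3 of 5 called lower, and 1 by voom. The dendritic list, led by Flt3, summed to 57.8, 56.3 and 64.6 FPKM in controls and 67.9, 76.1 and 77.1 FPKM in the labelled libraries. Of its 3 tested genes 0 were called, with 1 higher at an unadjusted p under 0.05. Of 4 megakaryocyte markers 1 was called higher, by limma and by voom. Of 10 endothelial markers, led by Cldn5, 1 was called higher, with 9 higher at an unadjusted p under 0.05 and 4 called higher by voom. Of all genes limma called 0.883% higher and 0.424% lower, and voom 1.82% and 1.34%. At an unadjusted p under 0.05, 9.79% were higher and 8.08% lower. No marker of these lists was at 0 in all 6 libraries, and their part in the members' values was not tested.

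The Lats2 comparison asks what the loss of a kinase upstream of Yap1 and Taz changes in bone endothelial cells. Of the 35 members 31 were tested, and Oas2, Oas3, Mx1 and Mx2 were below the filter. Many members were lower in Lats2 iΔEC, with 12 of 31 called lower, where 9.98% of the 12453 genes tested were. Ifitm2 alone was called higher, where 11.8% of genes were. The median log2 fold change was -0.51 among members and -0.0033 over all genes, and 23 of 31 members were below 0. In the voom fit these medians were -0.73 and -0.14. With 2 libraries a group, 20 members were lower in both Lats2 iΔEC libraries than in both controls, where 34.2% of genes were, and 3 were higher, where 34% were.

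Among the transducers and factors, Irf8 stood at 28.9 and 30.5 FPKM in controls and 9.43 and 11.1 FPKM in Lats2 iΔEC. Both mutant libraries were far below both controls (log2 fold change -1.45, SE 0.13, adjusted p 0.00808). Irf1 stood at 54.8 and 59.7 FPKM in controls and 33.8 and 40.7 FPKM in Lats2 iΔEC, again apart (log2 fold change -0.61, SE 0.14, adjusted p 0.0361). Irf7, which amplifies the production of type I interferon, stood at 20.8 and 25.7 FPKM and 13.7 and 15.2 FPKM. Its groups did not overlap (log2 fold change -0.65, SE 0.15, adjusted p 0.0383). Irf9 and Stat2 lay below control in both mutant libraries without passing the test, at -0.46 (adjusted p 0.0604) and -0.60 (adjusted p 0.0644).

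Among the tested members, the GTPase genes Iigp1 and Igtp, with Isg20 and Irf8, had the largest log2 fold changes of FPKM + 1. Iigp1 stood at 102 and 82.03 FPKM in controls and 24.7 and 34.3 FPKM in Lats2 iΔEC, and Igtp at 50.8 and 38.7 FPKM and 13.2 and 17.4 FPKM. In both genes each mutant library held less than each control, and control replicate 1 was the highest of the 4. Iigp1 fell by 1.62 on the log2 scale with SE 0.20 (adjusted p 0.0115) and Igtp by 1.49 (SE 0.20, adjusted p 0.0128). Irgm1, a regulator of such GTPases, stood at 39.3 and 41.2 FPKM in controls and 28.1 and 23.8 FPKM in Lats2 iΔEC. It fell with no overlap (log2 fold change -0.62, SE 0.13, adjusted p 0.0315). The guanylate-binding members were not called, Gbp2 at -0.24 (adjusted p 0.191) and Gbp3 at -0.05 (adjusted p 0.814). Their relatives Gbp7 and Gbp9, which are not members, fell, at -0.75 (adjusted p 0.0188) and -0.65 (adjusted p 0.0243), but were not called without either control or without Lats2 iΔEC replicate 2 (0.0639 to 0.187).

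Rsad2 encodes viperin, an enzyme that makes a chain-ending nucleotide against viruses. It stood at 40.4 and 38.6 FPKM in controls and 21.5 and 14.2 FPKM in Lats2 iΔEC. The lower mutant library was replicate 2, and both were below the controls (log2 fold change -1.13, SE 0.21, adjusted p 0.0228). Among the IFIT genes, Ifit3 stood at 14.5 and 16.95 FPKM in controls and 6.83 and 9.55 FPKM in Lats2 iΔEC and fell without overlap (log2 fold change -0.88, SE 0.19, adjusted p 0.0326). Ifit2, at 5.27 and 10.1 FPKM and 4.39 and 3.73 FPKM, was also lower in both mutant libraries, but the spread of the controls was wide (log2 fold change -0.73, SE 0.30, adjusted p 0.139). Ifit1 overlapped (log2 fold change -0.17, SE 0.19, adjusted p 0.555).

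Isg20 encodes an exonuclease that degrades RNA. It stood at 14.4 and 13.4 FPKM in controls and 6.38 and 2.2001 FPKM in Lats2 iΔEC. Both mutant libraries were lower, but they differed from each other by more than the controls did (log2 fold change -1.62, SE 0.39, adjusted p 0.0426). The log2 fold change was -2.22 without Lats2 iΔEC replicate 1 and -1.01 without Lats2 iΔEC replicate 2. Ifi44 stood at 10.4 and 18.7 FPKM in controls and 5.24 and 5.91 FPKM in Lats2 iΔEC, with control replicate 2 far above the rest (log2 fold change -1.19, SE 0.28, adjusted p 0.0371). Rtp4 stood at 74.4 and 78.2 FPKM and 51.4 and 50.1 FPKM, with close replicates and no overlap (log2 fold change -0.58, SE 0.11, adjusted p 0.0244). Ifitm1, the last called, was low, at 2.205 and 2.15 FPKM in controls and 0.727 and 0.734 FPKM in Lats2 iΔEC (log2 fold change -0.88, SE 0.22, adjusted p 0.0444). Its mean of 1.45 FPKM over the 4 libraries passed the filter through the controls.

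Not all members went the same way. Ifitm2 stood at 248 and 307 FPKM in controls and 463 and 713 FPKM in Lats2 iΔEC. Both mutant libraries were above both controls, and replicate 2 of the mutant was the highest (log2 fold change 1.05, SE 0.24, adjusted p 0.0376). Bst2, the tetherin gene, stood at 259 and 277 FPKM and 314 and 389.9 FPKM, higher in both mutant libraries without passing the test (log2 fold change 0.38, SE 0.15, adjusted p 0.136). Without Lats2 iΔEC replicate 1, Bst2 was called higher with an adjusted p of 0.0491, the only call among its 12 alternatives (up to 0.654). Ifitm3 had 839 and 947 FPKM in controls and 889 and 1109.5 FPKM in Lats2 iΔEC, and the groups overlapped (log2 fold change 0.16). Isg15, at 27.4 and 42.03 FPKM and 35.05 and 43.6 FPKM, overlapped too (log2 fold change 0.20, adjusted p 0.574), as did Xaf1, Eif2ak2, Ifi35 and Oasl1. Usp18 had a log2 fold change of -0.32 (adjusted p 0.151). Oas1a stood at 1.28 and 1.34 FPKM in controls and 1.69 and 3.09 FPKM in Lats2 iΔEC. It was higher in both mutant libraries and was not called (log2 fold change 0.52, SE 0.27, adjusted p 0.224). Below the filter, Oas3 stood at 1.69 and 1.801 FPKM in controls and 0 and 0.231 FPKM in Lats2 iΔEC. With no filter it was called lower, with a log2 fold change of -1.31 and an adjusted p of 0.0376.

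**Figure D4:**
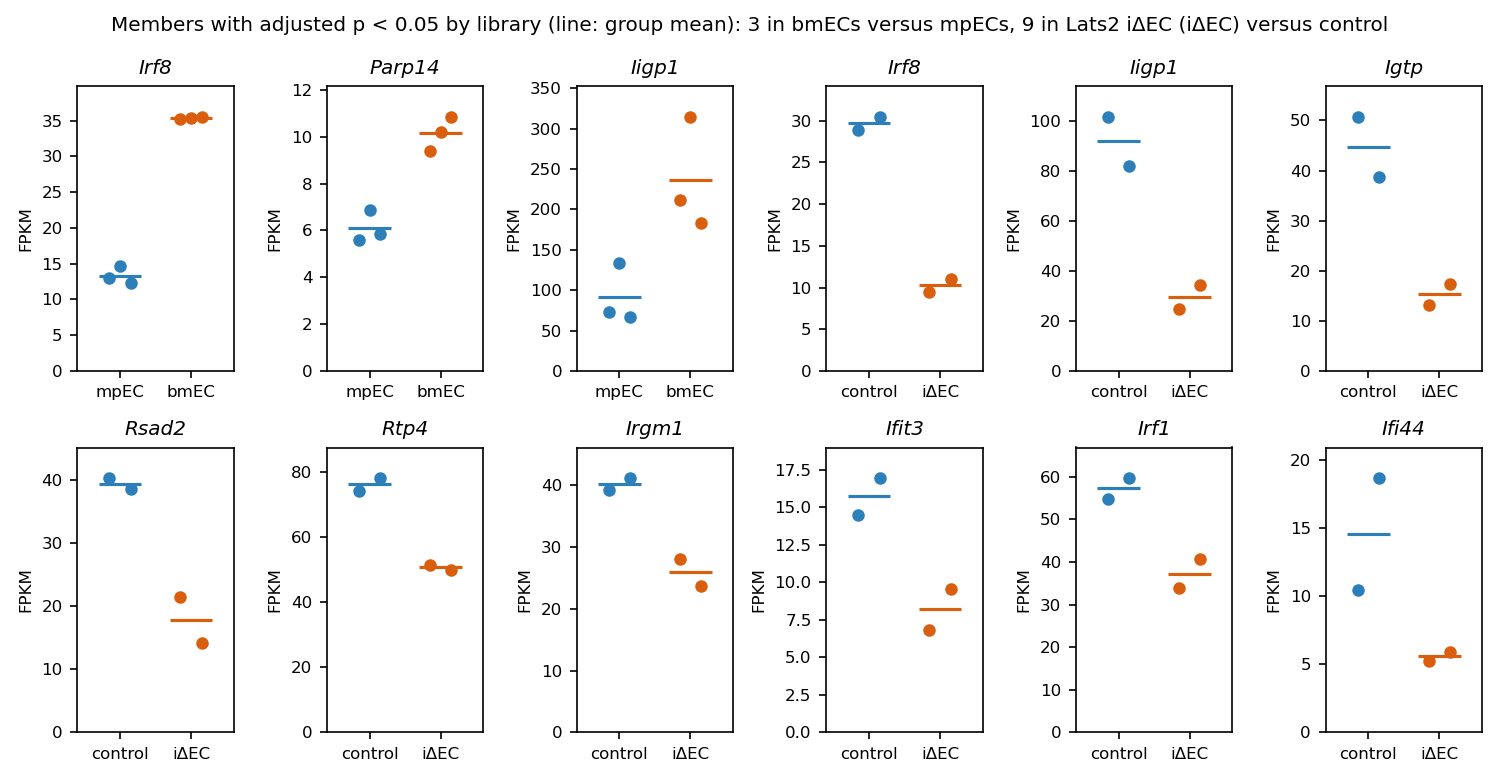
FPKM of members with an adjusted p under 0.05 in each library (points; line, group mean), 3 for bmECs against mpECs and the 9 with the smallest p of the called members with a lower level in Lats2 iΔEC. Irf8 lies at 35.2 to 35.6 FPKM in bmECs and at 9.43 and 11.1 FPKM in Lats2 iΔEC, and no panel shows groups that overlap.

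Each group had 2 libraries, so each call leaned on few libraries and leaving 1 out left a group of 1. Calls lost without a control were lost over the whole table, so these losses are not particular to the members. The log2 fold change without control replicate 1 and 2 in turn was -1.49 and -1.41 for Irf8 and -1.58 and -0.80 for Ifi44. With all 4 libraries it was -1.45 and -1.19. Without control replicate 1, limma called 0 of 12465 genes in the whole table, and 14 members were lower and 0 higher at an unadjusted p under 0.05, where 9.62% and 12.2% of genes were. Without control replicate 2 it called 0 of 12512 genes, with 10 members lower and 2 higher at an unadjusted p under 0.05, where 10.2% and 12.8% were. In those fits 25 and 21 of 30 tested members were below 0, as were 49.7% and 49.5% of genes. Without Lats2 iΔEC replicate 1, 8 members were called lower and 2 higher, where 10.1% and 11.6% of genes were. Without Lats2 iΔEC replicate 2, 6 were called lower (Ifit3, Igtp, Iigp1, Irf8, Isg20 and Rsad2) and 0 higher, where 3.69% and 3.83% of genes were, with 1 member higher at an unadjusted p under 0.05. A group left with 1 library is assumed in these fits to vary like the other group. Voom, on all 4 libraries, called 15 lower, where 17.4% of genes were, and 1 higher, where 10.8% were. Over the 12 alternatives the log2 fold change of Irf8 ran from -1.67 to -1.35 and its adjusted p from 0.000957 to 0.129, and for Igtp they ran from -1.68 to -1.29 and from 0.00273 to 0.134. The adjusted p was under 0.05 in 10 of the 12 for Irf8, Iigp1 and Igtp, in 9 for Rsad2 and Rtp4, in 8 for Ifit3, in 7 for Irgm1, Isg20 and Ifitm2, in 6 for Irf1, Irf7 and Ifi44 and in 2 of 11 for Ifitm1, which ran from 0.0229 to 0.237.

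Markers of several blood cell types fell along with these members. The 9 neutrophil markers summed to 2885 and 1933 FPKM in controls and 848 and 706 FPKM in Lats2 iΔEC, and 6 of 8 tested were called lower, with S100a8 the most abundant at 947 and 593 FPKM and 310.2 and 260.3 FPKM. The 6 B cell markers, led by Cd79a, summed to 102 and 88.97 FPKM and 27.98 and 20.8 FPKM, and 6 of 6 were called lower. Both lists were lower in each mutant library than in each control. The 9 macrophage or monocyte markers, led by Lyz2, summed to 565 and 478 FPKM and 343 and 102 FPKM. By limma 0 of 7 tested were called, with 3 higher and 1 lower at an unadjusted p under 0.05 and 2 called lower by voom. Of all genes limma called 11.8% higher and 9.98% lower, and voom called 17.4% lower. At an unadjusted p under 0.05, 20.1% were higher and 18.5% lower. The genes C1qa, C1qb and C1qc, which define tissue macrophages, were above both controls in both mutant libraries, with adjusted p-values of 0.06598, 0.11001 and 0.0842.

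The plasmacytoid dendritic list summed to 47.7 and 37.8 FPKM in controls and 12.2 and 12.8 FPKM in Lats2 iΔEC, nearly all of it Ly6d, which B cell precursors also express. Its defining marker Siglech was at 0.535 and 0.596 FPKM and 0.862 and 0.534 FPKM. The dendritic list summed to 24.7 and 29.5 FPKM and 12.7 and 9.63 FPKM, nearly all of it Zbtb46, which endothelial cells also express. The other lists of blood cells were lower in both mutant libraries as well. The T or NK sum was 5.68 and 3.91 FPKM and 1.65 and 0.1399 FPKM, the erythroid sum, led by Hbb-bs, 3641 and 2394 FPKM and 1389 and 242 FPKM, and the megakaryocyte sum, led by Pf4, 29.1 and 106 FPKM and 12.1 and 9.45 FPKM. No listed marker was at 0 in all 4 libraries.

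The endothelial sum, led by Esam, was 2650.4 and 2918 FPKM in controls and 2607 and 2423 FPKM in Lats2 iΔEC. Of its 10 genes Pecam1 was called higher and Kdr and Tek lower. In the osteoblast, stromal and osteoclast lists 1 gene each was called higher (Spp1, Cxcl12 and Ctsk). The osteoblast sum was 65.9 and 8.998 FPKM and 35.3 and 63.9 FPKM, the stromal sum 36.4 and 42.5 FPKM and 50.8 and 49.98 FPKM, and the osteoclast sum 34.3 and 28.8 FPKM and 56.99 and 32.7 FPKM. The genes of sorting stress summed to 478 and 612 FPKM and 597 and 479 FPKM and overlapped, with 1 of 8 called higher (Atf3) and 2 lower (Hspa1a and Hspa1b). Interferon-stimulated genes are expressed by blood cells and endothelial cells alike, and the part of the blood cells in the lower values of the members was not tested.

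**Figure D5:**
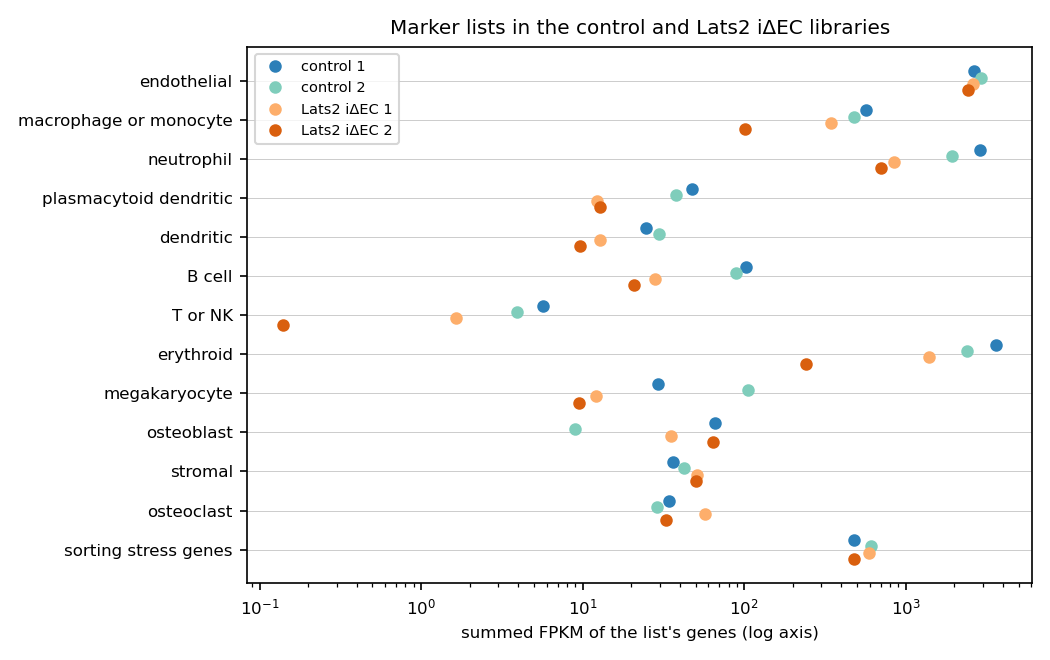
Summed FPKM of each marker list (log axis) in the 2 control and 2 Lats2 iΔEC libraries (points). The neutrophil sum lies at 2885 and 1933 FPKM in controls and 848 and 706 FPKM in Lats2 iΔEC, while the endothelial sum lies between 2423 and 2918 FPKM in all 4.

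The rest of the pathway was read from the same lists. Of 19 interferon genes 18 were at 0 in all 4 Lats2 libraries, and Ifne reached 0.399 FPKM in Lats2 iΔEC replicate 1. Of 5 tested receptors 0 were called by limma, with 2 higher and 1 lower at an unadjusted p under 0.05 and 1 called lower by voom. Of all genes 20.1% were higher and 18.5% lower at that p, and voom called 17.4% lower. Ifngr2 stood at 39.9 and 36.5 FPKM in controls and 50.8 and 63.9 FPKM in Lats2 iΔEC (log2 fold change 0.57, SE 0.15, adjusted p 0.0539). Ifngr1, its partner, had a log2 fold change of -0.36, Ifnar1 of 0.38, Ifnar2 of 0.00 and Il10rb of 0.25, with adjusted p-values from 0.0777 to 0.993.

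Of the kinases Jak1, Jak2 and Tyk2 and the factor Stat3, 1 fell. Jak1 stood at 217 and 221 FPKM in controls and 90.9 and 72.8 FPKM in Lats2 iΔEC, with both mutant libraries far below the controls (log2 fold change -1.42, SE 0.15, adjusted p 0.00912). Jak2, Stat3 and Tyk2 lay below control in both mutant libraries without passing the limma test, at -0.53, -0.37 and -0.42. Voom called all 4 lower, where 17.4% of all genes were. Without control replicate 1 or 2 the Jak1 call was lost, as for all genes, with log2 fold changes of -1.43 and -1.40.

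Among 6 inhibitors Ptpn6 fell (log2 fold change -1.81, SE 0.22, adjusted p 0.0109), and among 14 sensors and adaptors Mavs (-1.45, adjusted p 0.009097), Tbk1 (-0.86, 0.0154) and Ddx58 (-0.53, 0.0361). By limma 9.98% of all genes were called lower. Voom called 3 inhibitors and 7 sensors and adaptors lower. Without control replicate 1 or 2 none of these was called by limma (0.111 to 0.237), and Ddx58 also not without Lats2 iΔEC replicate 1 (0.0544) or replicate 2 (0.091). Of 46 tested genes of the wider list 17 fell by limma, where 9.98% of all genes did, and 0 were called higher, where 11.8% were, with 0 higher at an unadjusted p under 0.05 and 0 by voom. Voom called 22 lower, where 17.4% of all genes were. The 5 with the smallest adjusted p were the GTPase genes Ifi47 (-2.05), Irgm2 (-1.51) and Tgtp2 (-1.92) and the genes Ifi204 (-1.03) and Tor3a (-1.11), of which Tor3a was not called without Lats2 iΔEC replicate 2 (0.0501) and all were not without either control (0.1097 to 0.136). Ifi47 stood at 113 and 96.5 FPKM in controls and 27.1 and 21.9 FPKM in Lats2 iΔEC. The median log2 fold change of the 46 was -0.55.

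Irf8 and Iigp1 were called both higher in bmECs than mpECs and lower in Lats2 iΔEC than control, 2 of the 31 members tested in both comparisons (6.45%). Of all 10471 genes tested in both, 495 were (4.73%). The comparisons share no library. The promoters of the members called lower in Lats2 iΔEC held an ISRE core in 5 of the 10 found in the table, against 11 of 17 other members. They held a GAS match in 4 of 10, against 6 of 17.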

How the data were processed

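Reads were mapped by the authors with TopHat to mm10 (GRCm38) and counted with HTSeq 0.6.1, and the deposited values are FPKM, made by a step that is not stated. The Yap1/Taz files name no unit, and FPKM was judged from the values, of which 62.4% to 63.5% of those up to 20 reads lay within 0.02 of a whole read. The authors' own tests used DESeq2. Libraries were grouped by their labels, and 0 columns had no sample.

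Genes whose mean over a comparison reached 1 FPKM were tested on log2(FPKM + 1) with limma 3.58.1 (R 4.3.3), with a group term, empirical Bayes moderation with a trend and two-sided p-values, adjusted by Benjamini-Hochberg over all genes tested, with calls under 0.05. The fit was tested on simulated data. Gene lengths came from GENCODE M21, and tables and plots from Python 3.11.15. The members and lists were chosen with earlier results of these data known. Members called in a comparison are given by library, up to 12 by adjusted p, and pathway genes by count, with up to 5 called genes a list. A gene of the pathway lists is not reported here. Ifitm1 in Lats2, and the members named without a call, were picked after their values were seen. Alternatives were the pseudocount, filter, scaling, trend, threshold, replicate block, voom and leaving out libraries.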

Additional observations from a re-analysis of the deposited data

How the results depend on the processing

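The numbers of members called changed as follows, and the cause was not tested unless fewer samples give it. For bmECs against mpECs (3 higher, 0 lower), voom called 3 lower, where 22.4% of all genes were, and leaving out 1 library gave 0 to 1 lower. Without mpEC replicate 2 and bmEC replicate 2, a setting chosen after seeing the data, 1 was lower. A replicate block, which treats libraries of the same number as pairs, gave 7 higher and 2 lower, where 13.98% and 12.9% of all genes were, but the numbers were not shown to pair, with correlations of 0.307, 0.0876 and 0.102 between like-numbered libraries, -0.175, -0.123 and -0.156 for Yap1/Taz and 0.0651 for Lats2. For the Yap1/Taz files (0 higher, 0 lower), leaving out 1 library gave 0 to 1 higher.

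For Lats2 (1 higher, 12 lower), no filter gave 0 higher and 5 lower (among all genes 3.63% and 3.38%), no trend 0 higher and 7 lower (among all genes 9.38% and 8.61%), and an adjusted p under 0.01 with an absolute log2 fold change over 0.5 gave 0 higher and 1 lower (among all genes 0.851% and 1.21%). Leaving out 1 library gave 0 to 2 higher and 0 to 8 lower, with a lone sample assumed to vary like the other group. The other settings kept each count within 1.5 times. No called member changed sign in a setting. Oas3, which the filter left out, was called lower in Lats2 without it (adjusted p 0.0376).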
